A study of Mus musculus with 12 samples.

Results

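KO2 and KO1 are separate lines edited at the same gene, Crls1, in NIH-3T3, fibroblasts from mouse embryos that grow without limit in culture. The comparison between them shows how far lines that share an edited gene differ from each other. It uses 6 of the 12 total RNA sequencing libraries, 3 from KO2 and 3 from KO1, and leaves out the wild-type (WT) cells and another edited line, KO3. A gene was tested where 3 or more of these 6 libraries reached a normalized count of 10, which kept 14441 of 54392 gene rows.

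Both lines share the editing step and the medium. Per the labels, NIH-3T3 cells received a plasmid for Cas9 and a guide RNA against Crls1, GFP-positive cells were sorted singly, and sequencing of genomic DNA was used to check that the alleles were lost. The medium held glucose, glutamine, fetal bovine serum, pyruvate and uridine. Each line is therefore 1 clone, and what sets the clones apart cannot be told apart from what set their founder cells apart. The labels name neither the alleles of each clone nor the cut site, and they do not say whether the 3 libraries of a clone are separate cultures, so p-values measure only the spread between libraries, which may be technical.

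Crls1 encodes cardiolipin synthase, which joins phosphatidylglycerol and CDP-diacylglycerol into cardiolipin, the signature phospholipid of the inner mitochondrial membrane. Cardiolipin binds respiratory complexes, and the title of the series concerns its part in docking mitochondrial ribosomes at that membrane. In fibroblasts, impaired mitochondrial function is known to raise ATF4, the transcription factor of the integrated stress response, which drives amino acid synthesis, amino acid transport and tRNA charging genes.

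All levels below are the authors' normalized counts, in which the reads of a library were scaled by its size factor. All differences are KO2 minus KO1 on the log2(value + 1) scale, so a positive difference is a higher level in KO2, and low genes are understated. A gene is called when its two-sided limma p, adjusted by Benjamini-Hochberg over all genes tested, is under 0.05. A gene silent in 1 clone passed the filter on low values only through the other clone, so it had to differ.

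The 6 libraries held 33300033 to 40194770 reads. Mitochondrial transcripts took 5.24% to 5.62% of them. Pearson correlations across genes, which are not independent replicates, were 0.986 to 0.990 for libraries of 1 clone and 0.935 to 0.940 for libraries of different clones. Read counts of library pairs, compared by chi-square over its degrees of freedom, gave 4.76 to 5.16 within KO1, 10.95 to 26.4 within KO2 and 79.6 to 100.8 between the clones, so no pair was within sampling noise. Fibroblast genes were present in both clones. The 15 fibroblast markers summed to 852571 to 892715 normalized counts in KO1 and to 932081 to 980637 in KO2, mostly from Fn1 and Col1a2. Lum and Fap were at 0 in all 6 libraries, and Dcn had at most 1.97. Of the 12 fibroblast markers tested, 5 were higher in KO2, 5 were lower and 2 were not called.

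Crls1 (ENSMUSG00000027357.16, GRCm38 chr2:132846666-132866785, plus strand) was expressed at a higher level in KO2 than in KO1. The KO1 libraries held 209, 209 and 213 normalized counts of Crls1 and the KO2 libraries 336, 338 and 374. The groups did not overlap, and the difference was 0.73 (SE 0.09, limma adjusted p = 0.000224). The authors' deposited table gives Crls1 a log2 fold change against WT of -1.95 in KO1 and -1.21 in KO2. Counts over the whole gene cannot tell an intact transcript from an edited one.

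The clones differed at 7627 of the 14441 genes tested, which is 52.8%. Of these, 3612 genes (25%) were higher in KO2 and 4015 (27.8%) were lower. The balance turned with the scaling: quantile normalization gave 4111 higher and 3709 lower, TMM factors 3903 and 3756, and edgeR 3918 and 3733. At an unadjusted p under 0.05 the count was 8396. Most differences were small, since the median size was 0.27 over all genes, 0.43 over those higher in KO2 and 0.46 over those lower. Differences of at least 2-fold were higher in KO2 at 501 genes (3.47%) and lower at 947 (6.56%), or at 751 and 817 after quantile normalization. Differences of at least 4-fold were uneven between the directions, with 136 genes (0.942%) higher and 535 (3.7%) lower. KO2 and KO1 libraries did not overlap at 8835 genes (61.2%). List members named below were picked mainly by adjusted p, so their lack of overlap only describes them. Counts of list members called are to be read beside the 25% higher and 27.8% lower over all genes tested.

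**Figure D1:**
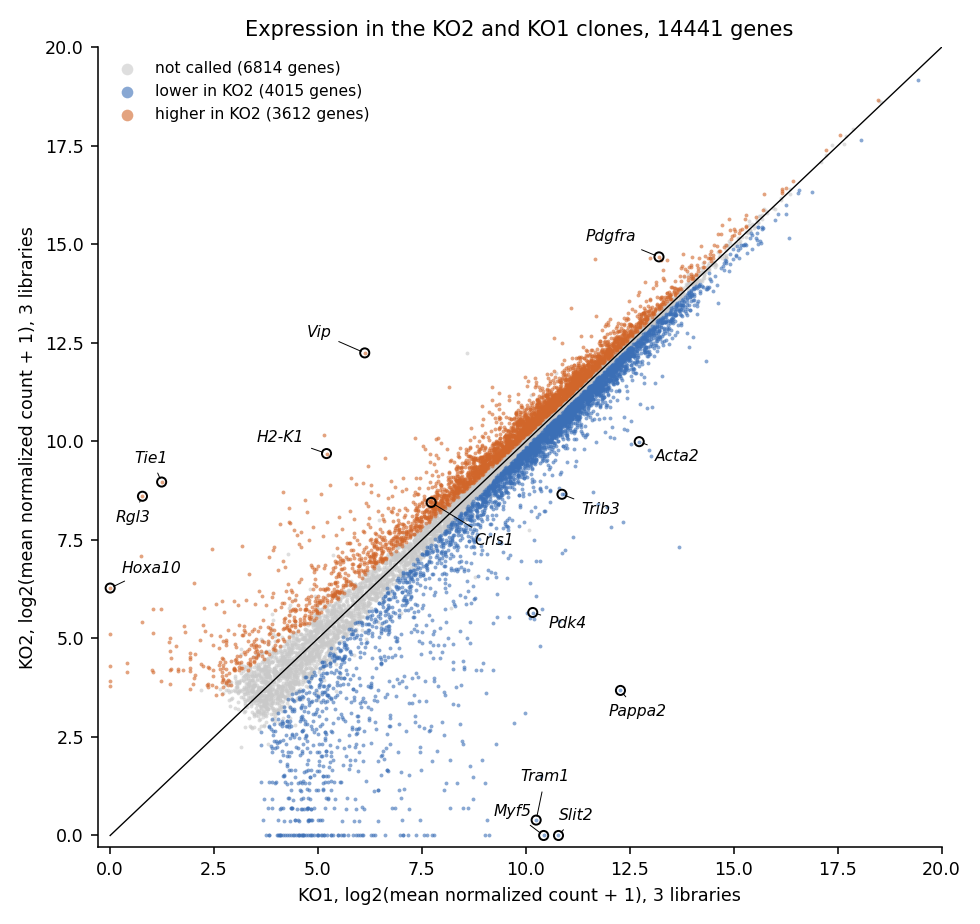
Each point is 1 of the 14441 genes, placed by its mean level in the 3 KO1 libraries (x axis) and the 3 KO2 libraries (y axis), both as log2(mean normalized count + 1). Orange points are the 3612 genes called higher in KO2, blue points the 4015 called lower and grey points the rest; the blue points along the bottom are genes with few or no reads in KO2, and fewer orange points lie along the left side.

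The genes with the largest differences were expressed in KO1 and had few or no reads in KO2. Slit2, a secreted guidance protein that binds Robo receptors, held 1948, 1694 and 1651 normalized counts in KO1 and 0 in every KO2 library. Myf5, a transcription factor of the skeletal muscle lineage, held 1345, 1377 and 1412 in KO1 and again 0 in KO2. With the KO2 group set to a floor of 3 reads, Slit2 was at least 1910-fold and Myf5 at least 1492-fold lower in KO2.

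Other genes followed the same pattern at lower levels. Irx1, an Iroquois homeobox factor of limb and organ patterning, held 552, 506 and 608 in KO1 and was at least 601-fold lower in KO2. Hs3st1, a sulfotransferase that modifies heparan sulfate, held 496, 495 and 549 and was at least 556-fold lower. Ptprq, a receptor-type phosphatase, held 217, 225 and 223 and was at least 240-fold lower. Ptprq lies 30914 bases from Myf5 on chromosome 10, and both neighbours were at 0 in KO2. WT and KO3 means were low too, at 0 and 0.29 for Myf5 and at 1.30 and 0.99 for Ptprq. They were 0 and 0.71 for Slit2, 1.08 and 0 for Irx1, and 1.34 and 9.56 for Hs3st1. For these genes KO1 was therefore the high line. Defb41, Olfr1259 and Cadm2 were the next in rank, at least 229-fold, 212-fold and 200-fold lower. Such bounds cover counting error only.

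Tram1, which encodes a membrane protein of the translocon of the endoplasmic reticulum, is a housekeeping gene and was nearly absent from KO2. It held 1262, 1246 and 1138 normalized counts in KO1 and 0.93, 0 and 0 in KO2, where 1 read was counted in all. The ratio was 3908, with a 95% exact counting interval of 701 to 154408. Tram1 averaged 1410 ± 27.6 in WT and 1295 ± 19.95 in KO3 (SD, n = 3 each), so KO2 was the line that lacked it. Tram1 spans chr1:13564698-13589910 on the minus strand.

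Counted over all genes, 71 had no read in any KO2 library and at least 10 normalized counts in each KO1 library, and 53 of them are protein-coding. Only 5 showed the opposite pattern. WT was also at 0 for 41 of the 71 and for 2 of the 5. The 5 genes silent in KO1 were Hoxa10, Usp26, Vmn1r62, Hoxa9 and Magea10. Hoxa10, a homeobox gene of posterior identity, held 84.0, 64.2 and 81.8 normalized counts in KO2 and was at least 74.0-fold higher there. Its neighbour Hoxa9 held 13.99, 16.3 and 12.3 in KO2, a bound of at least 13.7-fold. Of genes with at least 50 normalized counts in the expressing clone, 21 were silent in KO2 and 1, Hoxa10, was silent in KO1.

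Large differences were not limited to genes at 0. Pappa2, a protease that cleaves IGF-binding proteins, fell from 5669, 4815 and 4395 in KO1 to 11.2, 17.2 and 7.03 in KO2. Its difference was -8.67 (SE 0.26, limma adjusted p = 1.09e-07). Tmeff2, a transmembrane protein with follistatin-like domains, held 1184, 1450 and 1296 in KO1 and 0.96 to 2.80 in KO2. Mbnl3, a splicing regulator, held 512 to 556 in KO1 and 0.93, 0 and 0 in KO2. Ces1f, a carboxylesterase of a multigene cluster whose reads may be shared, held 335 to 396 in KO1 and at most 1.87 in KO2. Dlc1, a GTPase-activating protein, held 379, 502 and 387 in KO1 and 0 to 1.76 in KO2. Il1rl2, the receptor for interleukin-36, held 484 to 536 in KO1 and at most 2.64 in KO2. The choice of these genes required that the clones do not overlap.

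The genes with the largest differences in the other direction were low in KO1. Vip, which encodes vasoactive intestinal peptide, held 62.1, 67.5 and 76.7 normalized counts in KO1 and 4863, 4853 and 4858 in KO2. The KO2 mean was 69.9-fold that of KO1, and the log2 difference was 6.13 (SE 0.09, limma adjusted p = 2.28e-09). Tie1, an endothelial receptor tyrosine kinase, held 0, 2.11 and 1.97 in KO1 and 495, 488 and 518 in KO2. Rgl3, a guanine nucleotide exchange factor for Ral, held 2.14, 0 and 0 in KO1 and 440, 357 and 370 in KO2, a ratio of 546 (95% exact counting interval 151 to 4510).

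Further genes in this direction were Xlr3a, Eps8l2, Tnfrsf11b, Egfl7, Aif1l, Agpat2, Mroh2b and Tspan15. Tnfrsf11b, the decoy receptor osteoprotegerin, held 21.4 to 31.7 in KO1 and 325 to 411 in KO2. Egfl7, an endothelial secreted factor, held 12.7 to 20.7 in KO1 and 193 to 270 in KO2, and Agpat2, an acyltransferase of phosphatidic acid synthesis, held 14.8 to 24.6 and 231 to 268. Those genes lie on opposite strands of chromosome 2 and share 64 bases, and the sources used here do not say whether the counting used strand. Xlr3a belongs to a multicopy family on the X chromosome, so its counts may be shared with near copies. Other endothelial markers did not follow Tie1 and Egfl7: Cldn5 was at 0 in all 6 libraries, and Cdh5 was lower in KO2 (7.46 to 32.6) than in KO1 (151 to 188). The 12 endothelial markers summed to 313 to 362 in KO1 and to 900 to 926 in KO2, where the sum was mainly Tie1 and Egfl7. Of the 6 endothelial markers tested, 2 were higher in KO2, 1 was lower and 3 were not called. The part of endothelial markers in other results was not tested.

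**Figure D2:**
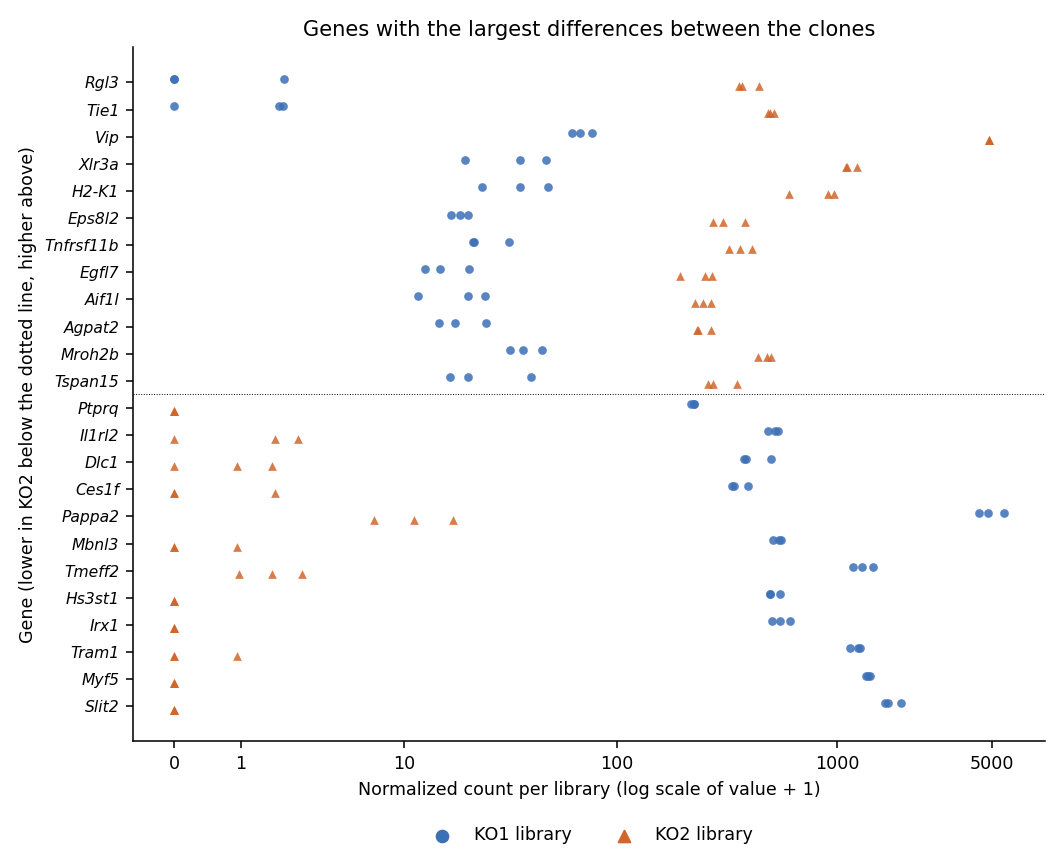
Normalized counts of the 24 genes with the largest called differences, 12 in each direction, among genes with a mean of at least 100 over the 6 libraries; circles are KO1 libraries, triangles are KO2 libraries, and the axis is the logarithm of the value + 1. Genes were picked so that the clones do not overlap, and Slit2, Myf5, Irx1, Hs3st1 and Ptprq sit at 0 in all 3 KO2 libraries.

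The integrated stress response was lower in KO2 than in KO1 across nearly its whole gene list. Of 34 tested regulators and ATF4 targets, 31 were lower in KO2, 0 were higher and 3 were not called, against 27.8% lower over all genes. The median difference of the list was -0.79, against -0.02 over all genes tested. The members summed to 146811 to 151315 normalized counts in KO1 and to 90390 to 99841 in KO2. The 3 uncalled members were Cebpb, Cbs and Pycr1.

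ATF4 itself and the factors around it were among the lower genes. Atf4 held 15940, 15669 and 15738 normalized counts in KO1 and 9724, 11150 and 10366 in KO2, a difference of -0.60 (SE 0.05, limma adjusted p = 2.92e-05). Atf5, a related factor, held 5408, 5561 and 5632 in KO1 and 2515, 2659 and 2309 in KO2. Ddit3, the factor CHOP, held 1290, 1129 and 1178 in KO1 and 705, 648 and 709 in KO2. None of these 3 genes overlapped between the clones. Trib3, a pseudokinase that feeds back on the response, showed the steepest separation among the named regulators, with 1918, 1815 and 1875 in KO1 and 395, 392 and 423 in KO2. Its difference was -2.21 (SE 0.06, adjusted p = 6.84e-08).

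Among the targets, amino acid enzymes and transporters stood lower by differing amounts. Cth, which makes cysteine from cystathionine, held 792, 780 and 692 in KO1 and 114, 130 and 151 in KO2. That is a 5.72-fold difference on the log2(value + 1) scale, the largest of the list. Gpt2, a mitochondrial alanine transaminase, was at -0.95 and Slc1a4, a transporter of neutral amino acids, at -0.92. Nupr1, a stress-induced chromatin regulator, was at -1.46. Chac1, which degrades glutathione, was at -1.54, and Slc7a11, a subunit of the cystine-glutamate exchanger, at -1.18. Asns, the asparagine synthetase, was at -0.78. The proline enzyme Pycr1 differed by -0.06 (adjusted p = 0.559).

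ATF4 and C/EBP proteins bind a composite site, the C/EBP-ATF response element, whose core can be written TGATGNAAN on either strand. In the 250 bases before the RefSeq start (GRCm38.p6), 5 of the 30 list members with a window held these letters, which are Chac1, Asns, Nupr1, Slc7a11 and Pycr1. The share was 16.7%, against 3.51% of all 27025 promoter windows and 2.00% of tested genes with a window. Because the list was made of ATF4 regulators and targets, a higher share may be built into it. It says nothing about the clones. A match is a description of the letters and not a site. The windows of the following 3 genes, which were all lower in KO2, are shown because they hold the element, in capitals; bases past the annotated gene start were removed.
Chac1 (chr2:119350992-119351228, plus strand): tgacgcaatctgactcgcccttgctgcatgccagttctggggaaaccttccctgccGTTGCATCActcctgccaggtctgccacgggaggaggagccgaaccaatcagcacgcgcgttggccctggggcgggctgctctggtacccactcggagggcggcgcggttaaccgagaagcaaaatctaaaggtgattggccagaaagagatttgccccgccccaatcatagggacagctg
Nupr1 (chr7:126625471-126625720, minus strand): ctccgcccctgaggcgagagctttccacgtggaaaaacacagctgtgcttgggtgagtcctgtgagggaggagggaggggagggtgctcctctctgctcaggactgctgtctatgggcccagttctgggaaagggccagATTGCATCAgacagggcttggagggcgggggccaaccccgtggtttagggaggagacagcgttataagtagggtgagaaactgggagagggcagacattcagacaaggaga
Slc7a11 (chr3:50443615-50443863, minus strand): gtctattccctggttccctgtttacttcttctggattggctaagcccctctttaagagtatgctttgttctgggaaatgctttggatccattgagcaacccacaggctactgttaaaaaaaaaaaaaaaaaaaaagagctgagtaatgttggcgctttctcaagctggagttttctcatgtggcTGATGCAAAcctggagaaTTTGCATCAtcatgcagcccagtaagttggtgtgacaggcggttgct

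In these windows Chac1 and Nupr1 hold 1 match each and Slc7a11 holds 2. Their levels separated the clones in every library. Chac1 held 981, 896 and 921 normalized counts in KO1 and 317, 353 and 292 in KO2. Nupr1 held 946, 960 and 872 in KO1 and 323, 325 and 361 in KO2. Slc7a11 held 408, 392 and 384 in KO1 and 145, 155 and 231 in KO2.

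Cytosolic aminoacyl-tRNA synthetases, which charge tRNAs with amino acids and include many ATF4 targets, were lower in KO2 for 13 of 20 genes. The exception in the other direction was Kars, the lysyl-tRNA synthetase, at 0.12 (SE 0.04, limma adjusted p = 0.0216). The call of Kars was lost without any of 4 libraries in turn, and its difference was -0.10 after subtracting the median of 24 neighbouring genes. The list median was -0.41. Nars, the asparaginyl-tRNA synthetase, held 13130, 13330 and 12325 in KO1 and 7317, 7845 and 8761 in KO2, a difference of -0.70. Eprs, Gars, Yars, Mars and Iars were between -0.54 and -0.69. Endoplasmic reticulum chaperones were mixed, with 12 of 22 lower and 5 higher. Hyou1, Manf and Atf6 were at -0.74, -0.69 and -0.70, whereas the protein disulfide isomerase Pdia6 was at 0.50 and the ubiquitin ligase Syvn1 at 0.43.

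Genes of cell division were lower in KO2. Of 40 mitotic genes, 39 were lower and 0 higher, with a list median of -0.56. The exception, Mad2l1, differed by -0.03 (adjusted p = 0.614). In bulk libraries such as these, fewer cells in a phase and less RNA per cell cannot be told apart. Cdc20, the activator of the anaphase-promoting complex, held 6157, 6135 and 6178 normalized counts in KO1 and 3556, 3976 and 3603 in KO2, a difference of -0.73 (SE 0.05, limma adjusted p = 7.94e-06). Cdca8, a subunit of the chromosomal passenger complex, held 3468, 3460 and 3631 in KO1 and 1722, 2067 and 1955 in KO2, a difference of -0.88. The motor Kif4, Incenp, the ubiquitin-conjugating enzyme Ube2c and the kinase Aurka were at -0.72, -0.55, -0.76 and -0.70.

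Replication genes were lower less uniformly. Of 39 licensing and clamp genes, 19 were lower, 1 was higher and 19 were not called, with a median of -0.26. Orc2, of the origin recognition complex, held 2240, 2182 and 2074 in KO1 and 1231, 1384 and 1391 in KO2, a difference of -0.70. Mcm3 and Mcm6, subunits of the replicative helicase, were at -0.51 and -0.39, Cdc45 at -0.60, and the polymerase genes Pola2 and Prim1 at -0.51 and -0.48. Rfc2, a clamp loader subunit, was the one higher gene, at 0.17 (adjusted p = 0.0358), a call that was lost without any of 3 libraries in turn.

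The G1 regulators were mixed. Ccnd1, cyclin D1, held 14972, 15042 and 14561 normalized counts in KO1 and 9017, 10155 and 10414 in KO2, a difference of -0.59. The transcription factors E2f1 and E2f7 were at -0.74 and -0.70. In the other direction, the cyclin-dependent kinase inhibitors Cdkn1b and Cdkn2c were at 0.36 and 0.41 and the pocket protein genes Rb1 and Rbl2 at 0.26 and 0.22, while Rbl1 was at -0.70. With neighbouring genes subtracted Cdkn1b was at -0.029. In all, 12 of 21 genes were lower and 5 higher, the fifth being the kinase gene Cdk6, at 0.35. Of 24 genes of p53 and its targets, 13 were lower, or 7 with neighbouring genes subtracted, against 27.8% of all genes. The 4 higher genes included the sestrin gene Sesn1 (0.82) and the death receptor Fas (1.05).

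Many mitotic promoters carry a cell cycle genes homology region, written here as TTTGAA, and CCAAT boxes, which the factor NF-Y binds. Searched on both strands in the same windows, TTTGAA was in 11 of 33 mitotic genes with a window (33.3%) and in 16.3% of all promoter windows. CCAAT was in 26 of 33 (78.8%) and in 34.5% of all. Over tested genes with a window, the shares were 10.95% for TTTGAA and 37.8% for CCAAT. High CCAAT shares were not limited to mitotic genes. They were 89.5% for endoplasmic reticulum chaperones, 86.7% for cholesterol synthesis and 72.2% for antigen presentation, a list with more genes higher than lower in KO2. The following windows of 3 mitotic genes that hold both motifs show them in capitals.
Cdc20 (chr4:118437353-118437593, minus strand): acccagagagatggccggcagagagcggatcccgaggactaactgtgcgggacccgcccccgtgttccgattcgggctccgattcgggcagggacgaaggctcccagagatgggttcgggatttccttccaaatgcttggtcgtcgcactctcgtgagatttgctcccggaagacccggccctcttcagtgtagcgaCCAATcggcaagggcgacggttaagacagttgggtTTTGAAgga
Cdk1 (chr10:69352939-69353162, minus strand): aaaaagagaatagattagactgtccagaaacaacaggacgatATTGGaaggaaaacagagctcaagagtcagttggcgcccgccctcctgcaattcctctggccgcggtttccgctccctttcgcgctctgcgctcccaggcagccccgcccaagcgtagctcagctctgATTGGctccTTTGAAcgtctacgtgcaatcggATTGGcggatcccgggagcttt
Ect2 (chr3:27153879-27154128, minus strand): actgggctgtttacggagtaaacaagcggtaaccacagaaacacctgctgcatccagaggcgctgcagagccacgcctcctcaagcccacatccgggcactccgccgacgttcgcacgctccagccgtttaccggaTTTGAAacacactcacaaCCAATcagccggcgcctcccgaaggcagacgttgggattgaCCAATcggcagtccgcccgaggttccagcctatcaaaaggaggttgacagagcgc

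All 3 genes were lower in KO2. Cdk1, the kinase that drives entry into mitosis, held 5256, 5366 and 5364 in KO1 and 3173, 3746 and 4245 in KO2. Ect2, an exchange factor of cytokinesis, held 3590, 3875 and 3649 in KO1 and 2027, 2322 and 2958 in KO2.

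**Figure D3:**
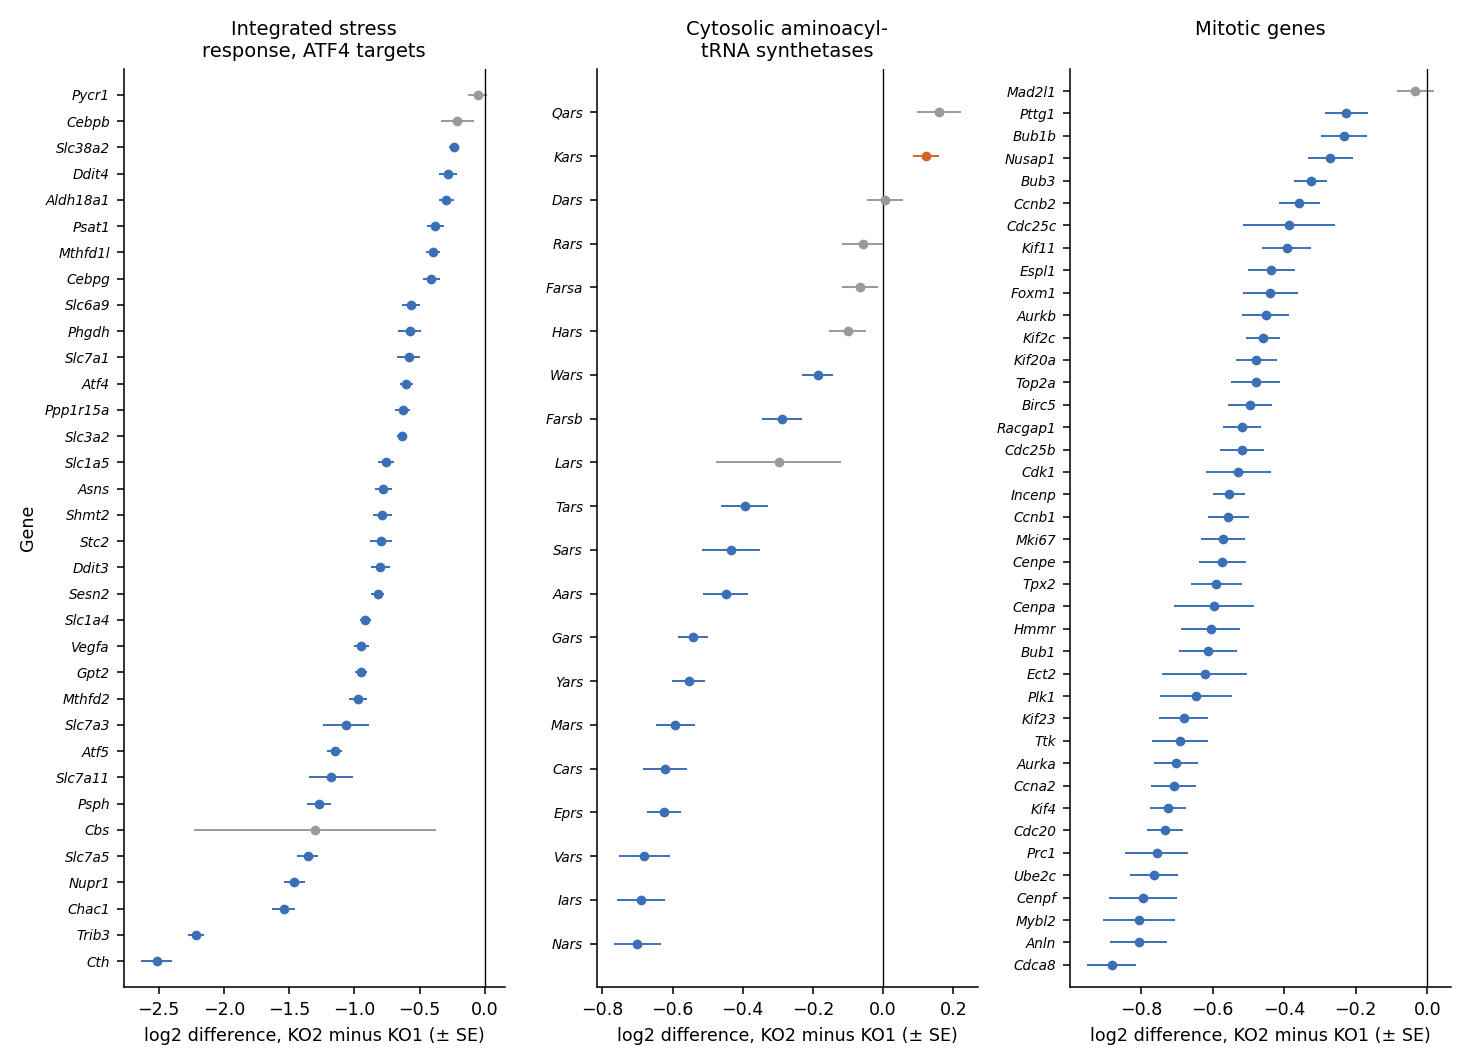
Log2 difference (KO2 minus KO1) of each tested member of 3 gene lists, with limma's standard error as the bar; blue marks genes called lower in KO2, orange genes called higher and grey genes not called. Of the members, 31 of 34, 13 of 20 and 39 of 40 are blue, and Kars is the only orange point.

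Cholesterol synthesis was lower in KO2 for 13 of 20 enzymes, with 0 higher and a median of -0.34. Hsd17b7, a ketosteroid reductase of the pathway, held 2260, 2257 and 2046 normalized counts in KO1 and 1157, 1197 and 1286 in KO2, a difference of -0.85 (SE 0.06, limma adjusted p = 1.23e-05). Sqle, the squalene epoxidase, was at -0.62. Hmgcs1 and Fdps, enzymes of the early pathway, were at -0.39 and -0.32.

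Sterol regulators went along in part. Insig1, which retains the SREBP complex in the endoplasmic reticulum, held 4649, 4629 and 4703 in KO1 and 2672, 2920 and 2920 in KO2. Abca1, the exporter of cholesterol to lipoproteins, held 382, 368 and 392 in KO1 and 24.3, 35.5 and 33.4 in KO2, a difference of -3.59. Of the 18 genes, 9 were lower and 5 higher, and the very low density lipoprotein receptor Vldlr was at 0.91. Of 19 fatty acid synthesis and desaturation genes, 8 were lower and 0 higher. Fasn, the fatty acid synthase, held 7978, 7744 and 7972 in KO1 and 4267, 4498 and 4934 in KO2.

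Fatty acid oxidation genes were more often called higher. Of 27 genes, 15 were higher in KO2 and 5 lower, with a median of 0.18. Acadm, the medium-chain acyl-CoA dehydrogenase, held 1962, 1920 and 2089 normalized counts in KO1 and 3972, 3439 and 3796 in KO2, a difference of 0.91 (SE 0.06, limma adjusted p = 8.56e-06). Acadvl, the very long-chain enzyme, was at 0.89 and Hadhb, of the trifunctional protein, at 0.47. The 5 lower genes were Pdk4, Ucp2, Acsl4, Acsl3 and Acot2. Pdk4, a kinase that shuts off pyruvate dehydrogenase, held 1130, 1118 and 1196 in KO1 and 56.9, 45.0 and 46.6 in KO2, a difference of -4.51. Ucp2, a mitochondrial carrier, held 863, 897 and 992 in KO1 and 235, 274 and 178 in KO2. Acsl3, Acsl4 and Acot2 are enzymes that activate fatty acids or release them from coenzyme A.

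Genes of cardiolipin synthesis and remodelling differed modestly. Of 19 tested, 9 were higher in KO2, Crls1 included, 3 were lower and 7 were not called. The other 5 listed genes did not pass the filter, and 3 of those were at 0 throughout. Pnpla8, a mitochondrial phospholipase, held 1784, 1759 and 1766 in KO1 and 2661, 2516 and 2474 in KO2. Plscr3, a scramblase that moves cardiolipin between the membranes, was at 0.50, Cds2, which makes CDP-diacylglycerol, at 0.40, and Pla2g6, a phospholipase, at 0.45. Taz, the tafazzin that remodels cardiolipin, was at 0.27, Gpam, an acyltransferase of the outer membrane, at 0.37, Hadha, which also reacylates monolysocardiolipin, at 0.34, and Phb2, a prohibitin, at 0.26. With neighbouring genes subtracted Phb2 was at -0.079. In the other direction, Agpat5 (-0.32), the lipid carrier Prelid3b (-0.25) and Pgs1, the phosphatidylglycerophosphate synthase (-0.24), were lower in KO2. Prelid1, Tamm41, Ptpmt1, Tmem65, Lclat1, Stoml2 and Triap1 were not called, with differences of -0.26 to 0.07.

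RNAs encoded by mitochondrial DNA differed at 4 of 13 rows. mt-Nd2, a complex I subunit, held 123780, 123040 and 118950 normalized counts in KO1 and 83665, 80204 and 84105 in KO2, a difference of -0.56 (SE 0.04, limma adjusted p = 1.93e-05). The large ribosomal RNA mt-Rnr2 was at -0.26 and mt-Co1 at -0.25, and mt-Cytb was at 0.23. After quantile normalization mt-Co1 was at 0. The small ribosomal RNA mt-Rnr1 differed by -0.07 (adjusted p = 0.339). Nuclear copies of mitochondrial genes can share reads with them, so these rows are uncertain.

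Nuclear genes for mitochondrial ribosomes were called in both directions. Of 78 genes, 15 were higher in KO2 and 17 lower, against 25% and 27.8% of all genes tested, and none differed by 2-fold. The lower count was 8 without the KO1 replicate 1 library, 9 without KO1 replicate 2, 9 with all 12 libraries and 8 with neighbouring genes subtracted. Mrps33 held 1672, 1720 and 1647 in KO1 and 2460, 2305 and 2340 in KO2, a difference of 0.50, and Mrpl12 was at -0.50. Nuclear subunits of the respiratory chain were higher for 22 of 74, near the 25% of all genes tested, and lower for 3, with a median of 0.06. Cytosolic ribosomal proteins were higher for 30 of 78 and lower for 1, with a median of 0.15. Rps3a1 held 54145, 53696 and 55016 in KO1 and 84115, 77987 and 75049 in KO2. The single lower gene was Rps2, at 251 to 379 normalized counts in the 6 libraries. The respiratory and cytosolic counts varied too. The cytosolic count ran from 17, without KO1 replicate 2, to 43, without KO2 replicate 3, the respiratory count from 15 to 34 for the same libraries, and in a fit over all 12 libraries they were 8 and 13.

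Of 45 interferon-stimulated genes, 14 were higher in KO2 and 16 lower, shares near the 25% and 27.8% of all genes tested, with a median of -0.04. At 2-fold or more, 2 were higher and 10 lower, against 3.47% and 6.56% of all genes tested. Trim30a, a restriction factor, held 3793, 4192 and 4174 normalized counts in KO1 and 8879, 7994 and 8142 in KO2, a difference of 1.04 (SE 0.06, limma adjusted p = 2.43e-06). Samd9l was at 0.89 and Gbp2, a guanylate-binding GTPase, at 0.62. Its relative Gbp9 held 1134, 1174 and 1278 in KO1 and 403, 254 and 308 in KO2. Oas1g, a 2'-5' oligoadenylate synthetase, held 76.0, 90.8 and 90.5 in KO1 and 0.93, 2.87 and 4.40 in KO2, and the tetherin gene Bst2 was at -1.44. Members of the GBP and OAS families are near copies of each other, so reads may be shared between them.

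Antigen presentation was higher for 11 of 22 genes and lower for 2. H2-K1, a classical MHC class I heavy chain (chr17:33996017-34000347), held 48.2, 35.9 and 23.6 in KO1 and 906, 965 and 607 in KO2, a difference of 4.51. It averaged 962 ± 315 in WT and 626 ± 67.2 in KO3 (SD, n = 3 each), so the low clone was KO1. H2-D1, the other classical heavy chain, held 13820, 13836 and 14309 in KO1 and 11986, 11099 and 10830 in KO2, a difference of -0.31. The nonclassical H2-T23 was at 1.25 and the peptide editors Tapbpl and Tapbp at 0.64 and 0.46. MHC class I genes share long stretches of sequence, which leaves single members uncertain. Of 21 cytokine genes, 10 were lower in KO2 and 4 higher. The chemokines Ccl2, Ccl7 and Ccl8 held 30.6 to 56.7 in KO1 and 0 to 4.66 in KO2.

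Mesenchymal surface markers were higher in KO2 for 13 of 20 genes and lower for 3, and their median of 0.59 was the highest of the lists. Pdgfra, the receptor for platelet-derived growth factor that marks fibroblasts, held 9552, 9249 and 9494 normalized counts in KO1 and 27081, 26087 and 25729 in KO2. The difference was 1.48 (SE 0.04, limma adjusted p = 5.42e-08). The tetraspanin genes Cd81 and Cd9 were at 1.35 and 0.72, Ly6c1 at 1.45 and the progenitor marker Cd34 at 0.81. Thy1, another fibroblast antigen, ran against its list with 4832, 4828 and 4906 in KO1 and 2484, 2356 and 2677 in KO2. Cd44 and Cd200 were also lower, at -0.41 and -0.80.

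Contractile genes of smooth muscle and myofibroblasts were lower in KO2 at 10 of 20 and higher at 6. Acta2, smooth muscle actin, held 7057, 6662 and 6630 in KO1 and 922, 1044 and 1091 in KO2, a difference of -2.74 (limma adjusted p = 3.98e-08). Actg2 and Tagln were at -3.89 and -1.59. Caldesmon, Cald1, was at 0.56. The YAP and TEAD targets Ccn1 and Ccn2, secreted matricellular proteins that respond to tension, were at -1.44 and -1.21, and F3, tissue factor, at -1.62. Of the 21 genes of that list, 10 were lower and 3 higher, the latter being Tead3, Tead4 and Vgll4.

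Of 27 collagen chains, 8 were higher in KO2 and 9 lower, shares near the 25% and 27.8% of all genes tested. At 2-fold or more, 1 was higher and 3 lower, against 3.47% and 6.56% of all genes tested. Col3a1, of type III collagen, held 8004, 6653 and 9159 in KO1 and 1013, 772 and 866 in KO2. That is an 8.95-fold difference on the log2(value + 1) scale. Col6a3 was at -1.11 and Col5a1 at -0.57, whereas Col1a1 was at 0.18. Of 42 proteoglycan, tenascin and matricellular genes, 23 were lower and 11 higher. Fbln2 and Fbln5, both fibulins, went opposite ways: Fbln2 held 15940, 15065 and 15787 in KO1 and 5618, 5493 and 5172 in KO2, and Fbln5 held 10039, 9652 and 9618 in KO1 and 25282, 25139 and 23925 in KO2. Osteopontin, Spp1, held 83040, 83994 and 81988 in KO1 and 35089, 37563 and 37711 in KO2. Of 31 proteases and inhibitors of the metalloproteinase families, 16 were lower and 10 higher, with Mmp2 at -0.999, Mmp11 at -2.50, Timp3 at 0.74 and Adam23 at 1.18.

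Of 21 cadherins and protocadherins, 11 were lower in KO2 and 3 higher, against 27.8% and 25% of all genes tested, with a median of -0.70. Pcdh10 held 1717, 1440 and 1424 in KO1 and 446, 436 and 407 in KO2. The higher genes were Cdh2, which encodes N-cadherin (0.23), Fat4 (1.14) and Pcdh12 (1.34). Of 45 guidance genes, 17 were lower, led by Slit2, and 13 higher, shares nearer to those over all genes. At 2-fold or more, 10 were lower and 1 higher, against 6.56% and 3.47% of all genes tested. Sema3a, a repellent semaphorin, was at -1.07, and of the semaphorin receptors Nrp2 was at -0.91 and Nrp1 at 0.16. Wnt genes leaned the other way, with 12 of 21 higher and 4 lower. Lgr4, the R-spondin receptor, held 14383, 14330 and 14747 in KO1 and 21622, 20644 and 21120 in KO2, and Fzd7 was at -0.76. Of 42 TGF-beta and BMP genes, 13 were higher and 17 lower, among them the latent TGF-beta binding protein Ltbp2 at -2.94. Of 24 integrins, 5 were higher and 7 lower, shares near those over all genes tested. At 2-fold or more, 1 integrin was higher and 5 were lower.

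Hox genes, which encode positional identity, were higher in KO2 for 11 of 21 and lower for 3. The 3 lower genes, Hoxb3, Hoxb5 and Hoxb6, belong to the HoxB cluster. Hoxb6 held 111, 69.7 and 111 in KO1 and 0 in every KO2 library. Hoxb3 held 67.4, 65.4 and 70.8 in KO1 and at most 0.93 in KO2. HoxA genes were higher: Hoxa5 held 694, 719 and 724 in KO1 and 1448, 1288 and 1225 in KO2, and Hoxa3 was at 0.71. No HoxB gene was among the higher ones.

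Regulators of limb and mesoderm identity were higher for 16 of 43 and lower for 9. Tbx18 held 1231, 1184 and 1158 in KO1 and 3023, 3149 and 3120 in KO2. Osr2 held 49.2, 63.3 and 88.5 in KO1 and 491, 531 and 467 in KO2, and its relative Osr1 was at 0.80. Gata2 was at 1.08 and Meis2 at 0.68, whereas En1 was at -1.41. Skeletal muscle markers summed to 1701 to 1787 in KO1 and to 348 to 465 in KO2, mainly Myf5. Of the 16 listed, 2 were at 0 in all 6 libraries, and they included the lineage factor Myod1, while Myog had at most 2.11. Tnnt3, a troponin of fast muscle, ran against Myf5 with 2.11 to 6.89 in KO1 and 130 to 191 in KO2. Of the 5 muscle markers tested, 3 were called higher in KO2 and 2 lower, with a median of 0.42. The part of muscle gene expression in the other differences was not tested.

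**Figure D4:**
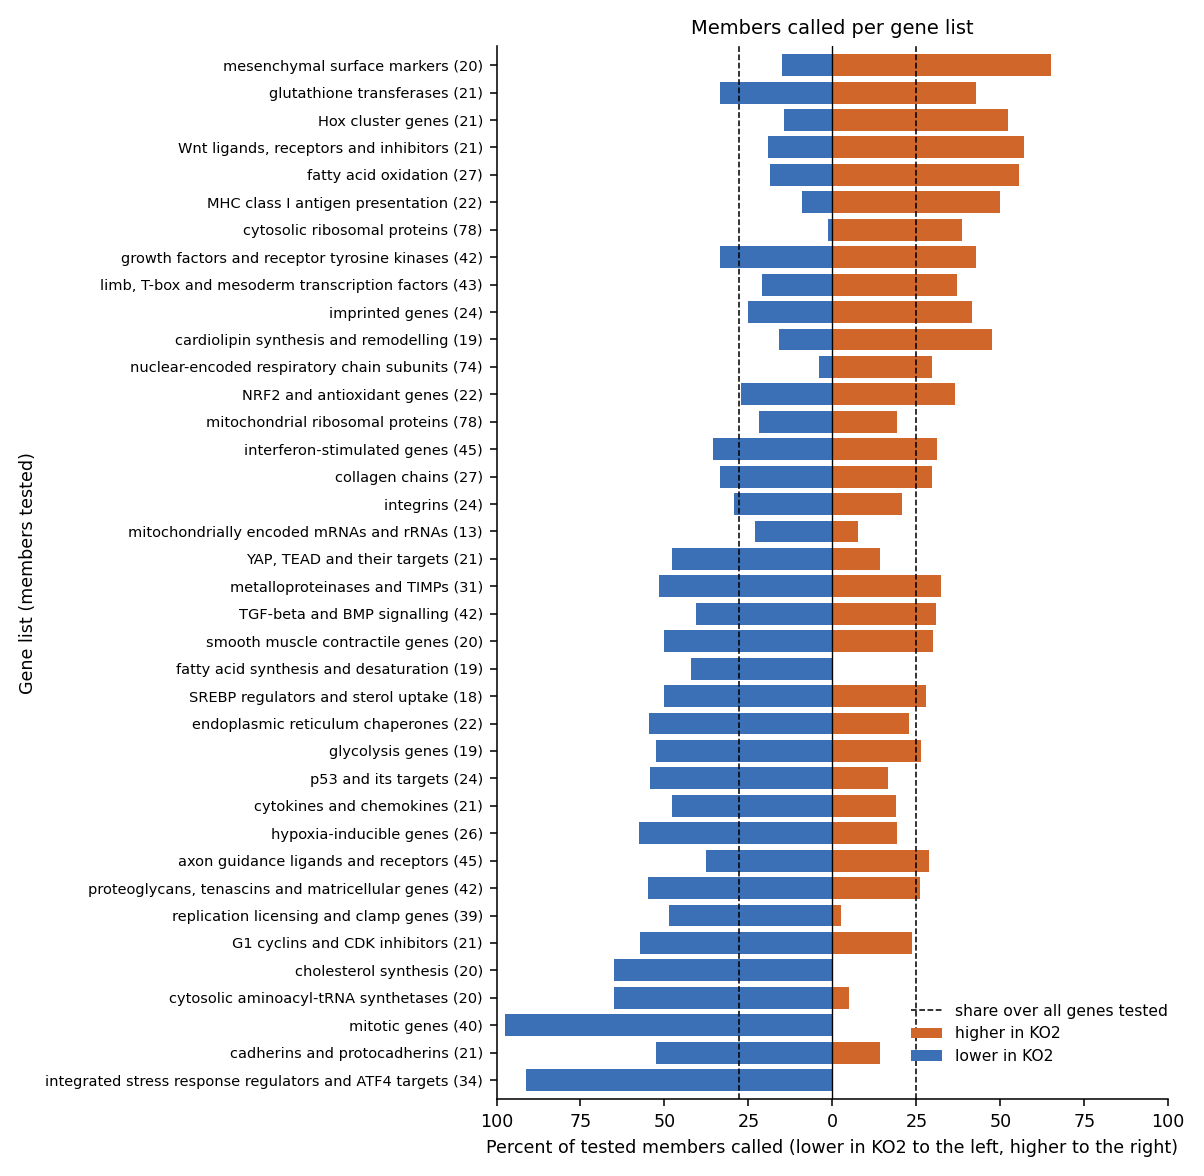
Share of the tested members of each of 38 gene lists called lower (blue, left) or higher (orange, right) in KO2, in percent, ordered by the list's median difference; dashed lines are the shares over all genes tested, 27.8% and 25%. The integrated stress response and mitotic lists reach farthest to the left, and mesenchymal surface markers farthest to the right.

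The differences were not evenly spread over the chromosomes. On chromosome 1, 419 of 862 genes (48.6%) were lower in KO2 and 93 (10.8%) higher, with a median of -0.23. On chromosome 12, 254 of 559 (45.4%) were higher and 80 (14.3%) lower, with a median of 0.23. Chromosome 6 resembled it, with 46.5% higher and a median of 0.21. Chromosome 10 had a median of -0.13 and chromosome 2 a median of 0.13. The medians held for single libraries: on chromosome 1 the 3 KO2 libraries were at -0.23, -0.24 and -0.22 against the KO1 mean, and on chromosome 12 at 0.23 each. Gene copies were not measured, so their part in these medians was not tested.

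**Figure D5:**
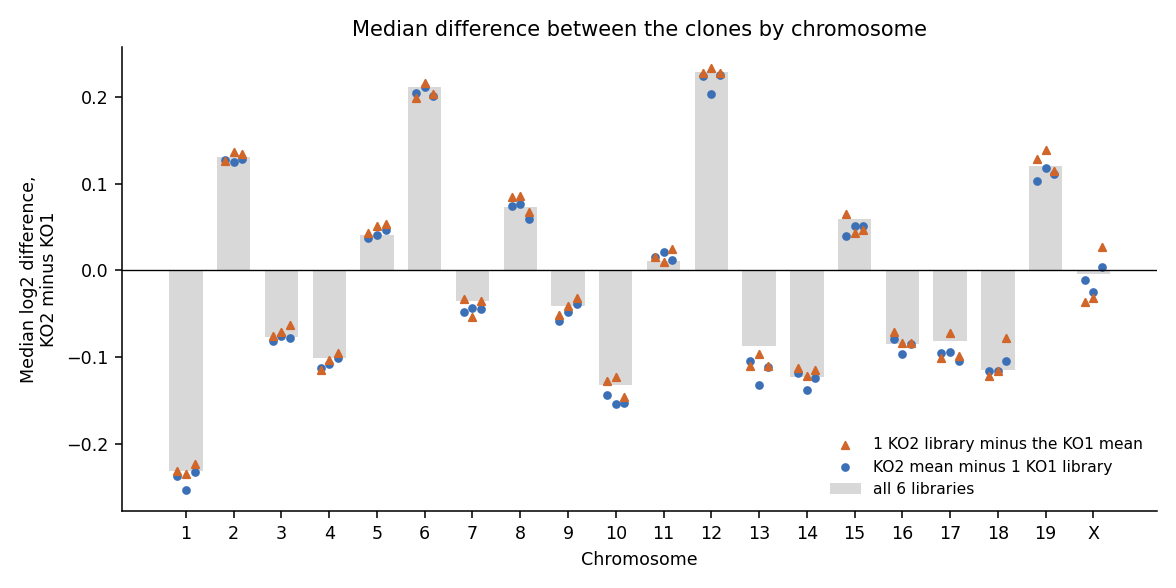
Median log2 difference of the tested genes on each chromosome (grey bars), with the same median for each KO2 library against the KO1 mean (triangles) and for the KO2 mean against each KO1 library (circles, KO2 minus KO1). The bars run from -0.23 on chromosome 1 to 0.23 on chromosome 12, and the single libraries lie close to the bars.

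Within chromosomes, strongly lower genes lay beside each other. Of the 535 genes at least 4-fold lower in KO2, 182 (34.0%) had such a gene as a direct neighbour among the genes tested, whereas 6.94% of all genes did. Of the 136 genes at least 4-fold higher, 21 (15.4%) had such a neighbour, against 1.85% of all genes. Over the 13943 runs of 25 neighbouring genes, the medians had quartiles of -0.12 and 0.09.

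The lowest runs differed in content. A run at chr1:82739691-85550577 had a median of -2.29, with 19 of 25 genes lower and 1, Trip12, higher. Of its genes, 18 are predicted models, and Daw1 and Agfg1 were at -6.21 and -0.79. A run at chr4:145390943-147457019 had a median of -2.16 and 21 of 25 genes lower. It holds a cluster of zinc finger genes, among them Rex2, with 7698 ± 133 normalized counts in KO1 and 1840 ± 134 in KO2 (SD, n = 3 each), Zfp600, Zfp980 and Zfp987. Such genes are near copies, so reads may be divided among them and the members are uncertain. The third, at chr5:102481391-105346472 with a median of -0.71, had 13 genes lower and 5 higher, and holds Spp1, Mapk10, Gbp9 and Gbp4 among the lower ones.

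The highest runs were less extreme, with medians of 0.52, 0.49 and 0.49. The first, at chr8:3122061-4360020, had 15 of 25 genes higher and includes Camsap3, which binds microtubule minus ends and was at 2.22, Retn and Pnpla6. The second, at chr2:93833467-104712169, includes catalase, Cat, at 0.64. The third, at chr6:83086367-83804018, includes Dctn1, Wbp1 and Rtkn, and in it the ATF4 target Mthfd2 (-0.97) and Actg2 ran against their neighbours.

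The WT and KO3 levels were set beside those of the clones at genes with a large difference. The filter read only KO1 and KO2, so a gene low in 1 clone and in WT or KO3 entered only through the other clone. The shares below are partly fixed by that choice, and they only describe the genes. Of the 501 genes at least 2-fold higher in KO2, WT was nearer to KO1 at 346 (69.1%) and KO3 at 361 (72.1%). Of the 947 genes at least 2-fold lower, WT was nearer to KO2 at 655 (69.2%) and KO3 at 598 (63.1%). At 4-fold or more, WT was nearer to KO2 for 421 of 535 lower genes (78.7%). Slit2, Myf5 and Irx1, which passed the filter only through KO1, fell in the majority, with WT means of 0 to 1.08. Tram1, Hoxa10 and H2-K1 fell in the minority. Of the 34 integrated stress response genes tested, KO3 was nearer to KO1 at 33 and to KO2 at 1. WT was nearer to KO1 at 24 and to KO2 at 10. Trib3, with means of 403 in KO2, 665 in WT, 1869 in KO1 and 6900 in KO3, was among the latter, and Mthfd2, with 2239 in KO2, 4384 in KO1, 5078 in WT and 7131 in KO3, among the former.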

How the data were processed

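The deposited table holds, per gene and library, counts divided by 1 size factor per library, a normalized signal made by the authors. The submitters' processing notes name DESeq2 1.24.0, Salmon 0.14.1 and cutadapt with the GRCm38 (mm10) build, without the role of each. The authors' deposited log2 fold changes against WT were used only for Crls1, and their deposited p-values, made by the authors by a step the sources used here do not describe, supported no result. All 54392 gene rows were read, and 54357 matched the GENCODE annotation of GRCm38 used for coordinates. Of these rows, 39951 did not pass the filter and 29265 were at 0 in all 6 libraries. In the table, 99.96% to 99.98% of values were whole multiples of the value of 1 read within 0.02, which gave the reads per library.

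Differences were tested with limma 3.58.1 (R 4.3.3) on log2(value + 1), with a trended prior variance and 4 residual degrees of freedom, over the 6 libraries, and adjusted over 14441 genes. On recovered reads, edgeR 4.0.16 called 3918 genes higher and 3733 lower, and DESeq2 1.42.0 called 3575 and 3794. Tested on simulated data for KO2 against KO1 with 14441 genes, limma recovered 81% of 100 genes changed by a log2 of 1 and 97% of 100 changed by 2, and called 0.140% of unchanged genes. The simulation changed far fewer genes than the 7627 called in the data, and it took the scaling as known. Its share of unchanged genes called therefore does not carry over to the data. At the filter, 154 genes had a third-highest value from 10 to 11 and 175 from 9 to 10.

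Members, gene lists and tests were chosen with earlier results of these data known. Named genes are Crls1 and the cardiolipin genes, the 12 largest called differences each way at a mean of at least 100 without overlap (predicted models left out), up to 8 silent genes per clone, up to 6 members per list by adjusted p with any that go against their list, and called genes in the 3 highest and 3 lowest runs of 25 genes. Outside that rule, Atf4, Ddit3, Chac1, Asns, Pycr1, Cebpb, Cbs, Cdk1, Ect2, Mad2l1 and Daw1 were chosen after their values were seen. Intervals and floors of 3 reads cover counting error only. Promoter windows are from RefSeq (GRCm38.p6). Some list members are not reported here.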

Additional observations from a re-analysis of the deposited data

How the results depend on the processing

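Counts of genes higher in KO2 ran from 3011 to 4111 and of genes lower from 3355 to 4257 over the alternatives tried, which were other pseudocounts, filters, scalings and tools, all 12 libraries, a replicate block, fits without 1 library and subtraction of the median of the 24 neighbouring genes. Of 224 named genes, 196 kept their direction and call in every one. A filter at 50 gave 316 genes higher and 529 lower by at least 2-fold, and no filter gave 1443 lower; fewer or more low genes were tested there. A minimum of 50 left 1 gene silent in KO1 and 21 in KO2, and a filter at 50 left 5 cytokines lower. With all 12 libraries, 9 mitochondrial ribosomal proteins were lower, and 8 cytosolic ribosomal proteins and 13 respiratory subunits higher. Leaving out 1 library gave 8 to 16, 17 to 43 and 15 to 34. With neighbours subtracted, 8 mitochondrial ribosomal proteins and 7 p53 genes were lower and 7 Hox genes higher. Runs of 51 genes had a highest median of 0.40 and a lowest of -1.64.

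Neighbour subtraction turned Triap1 (-0.10), Phb2 (-0.079), Kars (-0.10), Cdkn1b (-0.029), Agfg1 (0.19), Zfp600 (0.16), Rex2 (0.076) and Pycr1 (0.036), and quantile normalization left mt-Co1 at 0. Without 1 library, Stoml2 ran from -0.10 to 0.019, Pycr1 from -0.11 to 0.023 and Mad2l1 from -0.074 to 0.012, none of them called. The causes were not tested. Without 1 library, the calls of Acot2, Col1a1, Kars, Nrp1, Phb2, Rfc2, Tead3, Trip12 and mt-Co1 were lost at least once.

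Replicate numbers did not pair the libraries: deviations of same-numbered libraries correlated at -0.07, 0.03 and -0.05. The replicate block gave 3290 genes higher and 3710 lower, and Kars and Rfc2 lost their calls under it. The pseudocount understates differences of low genes.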

Other observations

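Imprinted genes, which are expressed mainly from 1 parental allele, differed between the clones by large amounts at single loci. Of 24 tested, 10 were higher in KO2 and 6 lower, against 25% and 27.8% of all genes tested. Igf2, a fetal growth factor, held 233, 237 and 238 normalized counts in KO1 and 5.60, 8.62 and 24.6 in KO2. Igf2r, the receptor that clears it, held 3182, 3156 and 3118 in KO1 and 400.2, 399.6 and 462 in KO2, a difference of -2.91. Mirg, a noncoding RNA of the Dlk1-Dio3 region, ran the other way with 623, 609 and 741 in KO1 and 2564, 2403 and 2227 in KO2.

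Growth factor genes were higher in KO2 for 18 of 42 and lower for 14, the latter a share near that over all genes tested. At 2-fold or more, 4 were higher and 6 lower, against 3.47% and 6.56% of all genes tested. Ptn, pleiotrophin, held 1862, 1820 and 1943 normalized counts in KO1 and 5911, 5549 and 5886 in KO2, a difference of 1.62 (SE 0.05, limma adjusted p = 8.7e-08). Btc, betacellulin, held 124, 145 and 100.3 in KO1 and 5.75 to 6.53 in KO2. Glutathione transferases, which are near copies of each other, were higher for 9 of 21 and lower for 7. Gstm1 held 4187, 4020 and 4212 in KO1 and 9190, 8876 and 8555 in KO2, while Mgst1 was at -2.21. Of 22 NRF2 and antioxidant genes, 8 were higher and 6 lower, against 25% and 27.8% of all genes tested. Hmox1 was at 0.76 and Prdx6 at -1.15.

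Hypoxia-inducible genes were lower in KO2 for 15 of 26 and higher for 5. Ero1l, an oxidase of the endoplasmic reticulum, held 5253, 5226 and 5382 normalized counts in KO1 and 1431, 1657 and 1599 in KO2. Glycolysis genes were lower for 10 of 19 and higher for 5, and the hexokinases went opposite ways, with Hk1 at 0.72 and Hk2 at -1.17. Adm, adrenomedullin, was higher in KO2, at 1.59.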
